A study of Homo sapiens with 15 samples.

Results

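The 28 genes described here encode proteins of the small (40S) ribosomal subunit: RPSA, RPS2, RPS3, RPS3A, RPS4X, RPS6, RPS7, RPS9, RPS10, RPS12, RPS13, RPS14, RPS15, RPS15A, RPS16, RPS18, RPS19, RPS20, RPS21, RPS23, RPS24, RPS25, RPS26, RPS27, RPS27A, RPS28, RPS29 and FAU. The rule that picks them is a list of gene names and uses no measured value, and each is 1 of 55773 gene names in the deposited table. All 28 passed the filter on low values used below.

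The study measured ribosome footprints, the short mRNA fragments that a ribosome shields from nuclease, in 15 libraries of HEK293 cells, a human embryonic kidney line. The Flag/HA control, ZC3H7A and ZC3H7B groups (3 libraries each) all received doxycycline at 1 µg/mL for 24 h, which switched on the Flag/HA tag alone in the controls and the tagged ZC3H7A or ZC3H7B in the others. Parental cells (wild-type with shCTR, 3 libraries) and the cells labelled ZC3H7A/B-DD (ZC3H7A-KO with shZC3H7B, 3 libraries) both went through puromycin selection (5 µg/mL), and cycloheximide (100 µg/mL) was in their lysis buffer. The labels do not say whether the ZC3H7A/B-DD line is 1 clone. Lysis, library kit and laboratory differed between the Flag/HA libraries and the other 6, so each set was compared with its own control, and differences between the sets cannot be told apart from protocol. ZC3H7A and ZC3H7B are RNA-binding proteins, and the series asks how they act on translation and mRNA stability according to codon content.

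The small subunit binds the mRNA, holds the decoding site and scans to the start codon, and its proteins sit in a head, a platform, a body and a beak around the 18S rRNA. Most of these mRNAs begin with a 5' terminal oligopyrimidine (TOP) motif, a C followed by a run of pyrimidines, through which mTOR signalling and the protein LARP1 set their translation together. Their genes are also the source of many processed pseudogenes, intronless copies of the mRNA elsewhere in the genome, so that a short footprint from such an mRNA can match several places.

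Libraries held 20777204 to 42680589 reads assigned to genes, and reads not assigned to a gene are outside these totals. Values below are normalized counts, reads divided by the library's size factor, as deposited. ZC3H7A stood at 6509 to 6607 in the Flag/HA controls and at 37598 to 38675 in the ZC3H7A libraries, and ZC3H7B at 2089 to 2230 in the controls and 27182 to 28936 in the ZC3H7B libraries. In the libraries labelled ZC3H7A/B-DD neither target was lower than in Parental: ZC3H7A stood at 7116, 1890 and 5066 against 1885, 1820 and 2311, and ZC3H7B at 3948, 2399 and 2969 against 2479, 2321 and 2609. Why neither target was lower was not tested, and these libraries are called by their label throughout. Of the 7 HEK293 markers, VIM ran from 17454 to 43627 normalized counts over the 15 libraries, KRT18 from 547 to 1516 and LIN28B from 612 to 2155. KRT8 ran from 168 to 1435, PAX2 from 101 to 229, NEFL from 24.1 to 343 and NEFM from 17.4 to 35.0. The leukocyte gene PTPRC stayed at 10.5 or below. Of the 6 fibroblast markers COL1A1 ran from 70.4 to 447 and COL3A1 from 8.37 to 265 over the 15 libraries, and COL1A2, LUM, THY1 and DCN stayed at 31.4 or below. Blood markers summed to 605 to 795 normalized counts in the controls, 202 to 279.9 with ZC3H7A and 321 to 435 with ZC3H7B, most of it HBB, and the 6 fibroblast markers to 106 to 132, 147 to 163 and 155 to 196. The part of either list in the changes below was not tested. Blood markers summed to 130.3 to 188 in Parental and 137 to 179 in the libraries labelled ZC3H7A/B-DD, and fibroblast markers to 572 to 757 and 386 to 488.

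The start of the transcript is shown for members whose values carry the results, since it holds the TOP motif through which these mRNAs are grouped. Each line covers 20 bases before and 10 bases from the RefSeq start on GRCh38.p14, 5' to 3', and capitals mark the run of C and T that overlaps the 5 bases on either side of the start.
RPS16, chr19:39435940-39435969, minus strand: ccagggtggcccctagCTTTCCTTTTCCgg
RPS19, chr19:41860235-41860264, plus strand: gcccgggaaaccccgtcgTTCCCTTTCCCC
RPS21, chr20:62387083-62387112, plus strand: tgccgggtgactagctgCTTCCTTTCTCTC
RPS12, chr6:132814549-132814578, plus strand: ggcatgcgtgcggatgaggCCTCTTTCCCT
RPS18, chr6:33272055-33272084, plus strand: gatatcgcgtcacttccgCTCTCTCTTCCa
RPS10, chr6:34426060-34426089, minus strand: cagcaccgcgcatgCTCCTTCCTTTCCagc
RPS28, chr19:8321476-8321505, plus strand: ggctctccccgaagcacgtgaCTCCTCTCC
RPS26, chr12:56041898-56041927, plus strand: gctgggagacacataacctcgaTTTTCTTC
RPS15, chr19:1438376-1438405, plus strand: ataactgcgcaggcgcggaCCaaagcgatc
RPS29, chr14:49598701-49598730, minus strand: ttttcccccgagcgcgcagCTggcagcggt
RefSeq start windows matched 25 of the 28 members by symbol; RPS2, RPS15A and RPS20 are only named. A run of at least 5 pyrimidines lay at a start of 23 of the 25, against 39.2% of the 27305 genes in the same table, and a run of at least 8 at 21 of the 25, against 13.7% of genes. RPS15 and RPS29 had no run of 5. Within 20 bases on either side of the start, CTTTCC was found for 7 members (2.56% of all genes), CTTTTC for 5 (2.04%), TCTTTC for 5 (2.18%) and CCTTTT for 4 (1.78%). The 4 motifs were searched on both strands, can overlap each other, and had no match on the reverse strand in any member; a match describes the letters only.

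The coding sequence is shown next because it sets where a footprint can be placed. Each member's principal coding sequence (APPRIS, GENCODE 29) was read in windows of 28 bases, about the length of a footprint, and each window was looked for in all 206694 GENCODE transcripts. A window found in no other gene is called unique, and one found elsewhere is called shared. The first 3 windows below are shared and the last 4 are unique; all are written 5' to 3' in lower case, with positions counted from the A of the start codon.
RPS28, coding bases 90 to 117: gcgcgtggaattcatggacgacacgagc
RPS10, coding bases 234 to 261: tctccgtgattaccttcatctgcccccg
RPS26, coding bases 159 to 186: ttctgaagcgagcgtcttcgatgcctat
RPS15, coding bases 52 to 79: cgcggcgtggacctcgaccagctgctgg
RPS16, coding bases 187 to 214: tttgctggtgtagacatccgtgtccgtg
RPS19, coding bases 366 to 393: actgacacctcagggacaaagagatctg
RPS21, coding bases 32 to 59: tgtacgtgccgcggaaatgctccgctag
The RPS28 window recurs in 3 other genes, the RPS10 window in 5 and the RPS26 window in 8. No window of RPS3A, RPS10, RPS26, RPS27 or RPS28 was unique, and the same 5 members had none with windows of 25 or 31 bases. RPSA, RPS2, RPS7, RPS15A and RPS27A had some unique windows but under 10%, RPS12, RPS15, RPS18, RPS20, RPS25 and RPS29 had 10% to 30%, and the other 12 had 30% or more, up to 79.3% for RPS21. A single processed pseudogene, AC004057.1, held every window of RPS26, and RPS28P7 held every window of RPS28. The number of pseudogenes sharing at least 1 window ran from 2 for FAU to 64 for RPSA.

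Footprint levels differed widely between members. The level here is reads per codon of the gene's longest coding sequence, divided by the median member of the same library, which allows genes to be compared. In the Flag/HA controls RPS19 stood highest at 9.24 ± 0.114 (SD, n = 3), followed by RPS14 at 4.61 ± 0.0950 and RPS4X at 4.49 ± 0.137. RPS14 and RPS4X lie within their spread of each other. At the other end stood RPS28 at 0.00782 ± 0.00173, RPS10 at 0.00915 ± 0.00142, RPS3A at 0.0327 ± 0.00292 and RPS27 at 0.0647 ± 0.00323. RPS28 and RPS10 lie within their spread of each other at the bottom of the order. RPS28 rested on 39 reads over all 3 control libraries and RPS10 on 141, against 64011 for RPS24.

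By share of unique windows, the 5 members with none ranged from 0.00782 to 0.161 in the controls and the 5 below 10% from 0.144 to 0.345. The 6 members at 10% to 30% ranged from 0.334 to 3.17 and the 12 at 30% or more from 0.612 to 9.24. In Parental the same 4 sets ranged from 0.0128 to 0.268, from 0.118 to 0.617, from 0.521 to 2.07 and from 0.983 to 8.60. Spearman's rho between level and share of unique windows was 0.81 in the controls and 0.89 in Parental over the 28 genes, given as a description, since the genes of a library share its reads and depth. How the authors treated reads that match several places is not given in the sources used here, and the part of shared sequence in these levels was not tested. Gene length matters for RPS24, which stood at 3.06 over its longest coding sequence of 289 codons, in place 6 of the order in the controls, and at 5.48 over the principal one of 133 codons. Over principal coding sequences it came in place 2 behind RPS19 (7.63), above RPS14 (3.80) and RPS4X (3.71).

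**Figure D1:**
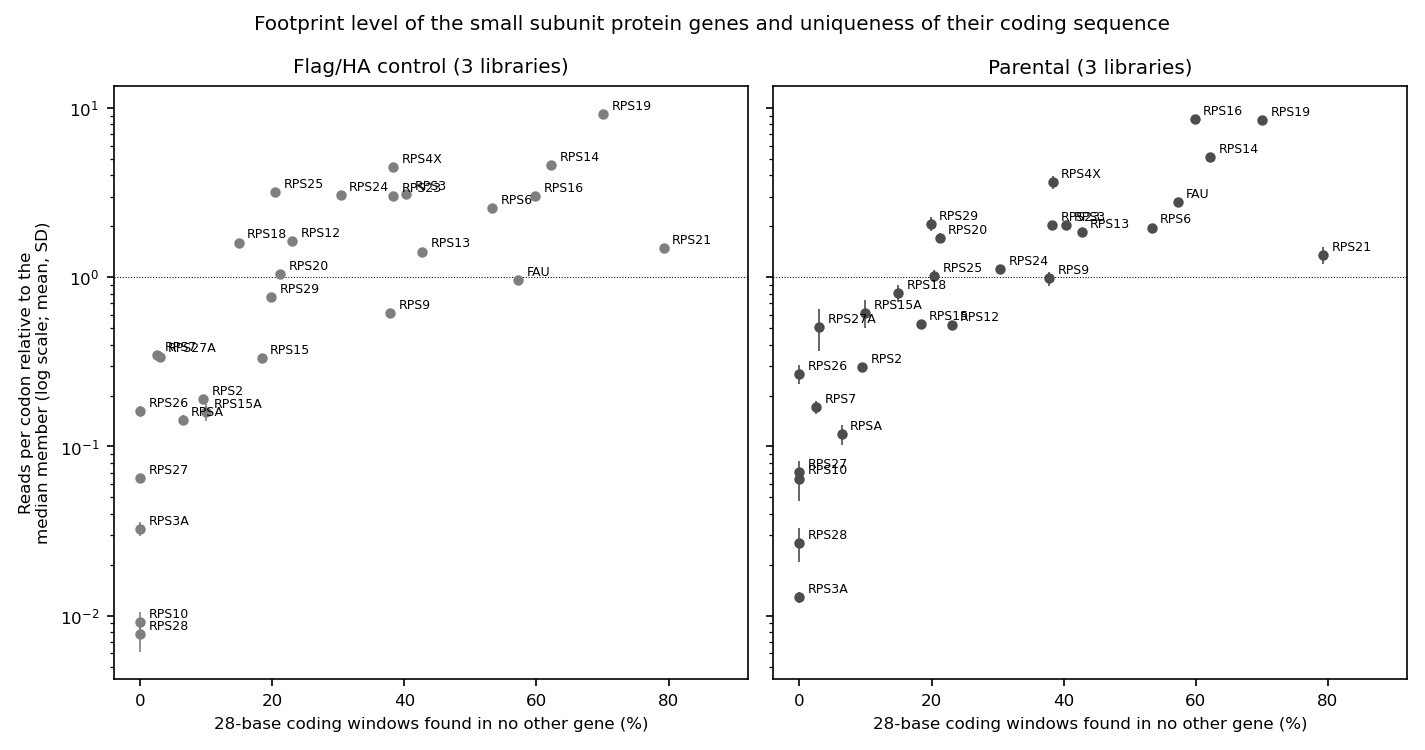
Reads per codon relative to the median member of the library (log scale; mean and SD of 3 libraries) against the percentage of 28-base coding windows found in no other gene, for the Flag/HA control (left) and Parental (right). The 5 members at 0% lie at 0.161 or below in the control, and RPS19 lies highest there at 9.24.

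Between the Flag/HA control and Parental the order was broadly alike (Spearman's rho 0.83 over 28 genes), but single members moved by several-fold. RPS10 stood at 0.00915 in the controls and 0.0645 in Parental, RPS15A at 0.160 and 0.617, and RPS28 at 0.00782 and 0.0270. RPS16 stood at 3.01 in the controls and 8.60 in Parental, FAU at 0.959 and 2.77, and RPS29 at 0.76 and 2.07. The reverse held for RPS12 (1.64 and 0.521), RPS25 (3.17 and 1.02) and RPS24 (3.06 and 1.12). These 2 groups differ in cells, selection, lysis and kit, which cannot be told apart, and no test was made.

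As a share of the library's reads assigned to genes, the 28 members took 0.706% ± 0.0153 (SD, n = 3) in the Flag/HA controls. They took 0.784% ± 0.0403 with ZC3H7A and 0.739% ± 0.0131 with ZC3H7B. They took 0.833% ± 0.0467 in Parental and 0.933% ± 0.0266 in the libraries labelled ZC3H7A/B-DD. In each of the 3 comparisons every treated library lay above every library of its control. The 46 large subunit protein genes took 1.22% ± 0.0102, 1.28% ± 0.0370, 1.25% ± 0.0318, 1.41% ± 0.0335 and 1.39% ± 0.0302 in the same order. A sum over members takes no test here. RPS19 and RPS16 alone made up 21.2% to 21.5% of the members' reads in the controls.

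**Figure D2:**
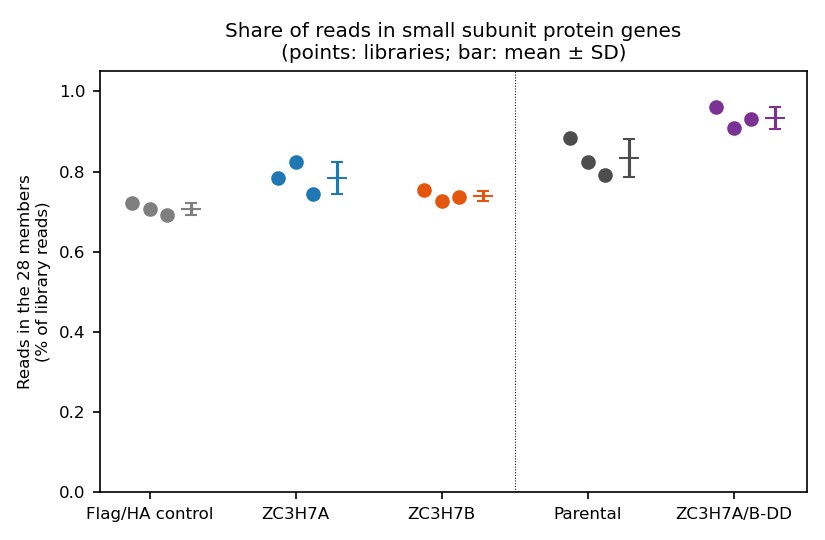
Reads in the 28 members as a percentage of the reads assigned to genes in each of the 15 libraries (points), with the mean and SD of each group. The 3 control libraries lie between 0.691% and 0.721% and the 3 labelled ZC3H7A/B-DD between 0.908% and 0.961%.

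Changes were tested per gene on log2(normalized value + 1), so that fold changes of the lowest members are somewhat understated; a gene is called when its Benjamini-Hochberg adjusted p over all tested genes is below 0.05. The labels call the Flag/HA libraries independent replicates and say nothing more of the others, whose p-values measure the spread between those libraries. Footprint counts do not separate more mRNA from more ribosomes per mRNA.

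With ZC3H7A, 15 of the 28 members were called: 13 rose and 2 fell, and 13 were not called. Of all 15599 genes tested, 57.5% were called (29.2% higher and 28.2% lower), so that the members' 53.6% lies near the background. The median log2 change of the members was 0.13, against 0.02 over all genes. RPS28, RPS10, RPS16 and RPS21 rose most, and RPS13 and RPS20 fell. The changes were small: 1 member, RPS28, passed 2-fold. The groups did not overlap for 16 members, against 63.9% of all genes. Without ZC3H7A replicate 2 the split became 9 higher and 7 lower. Equal totals gave 18 and 1 and quantile scaling 16 and 0.

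With ZC3H7B, 14 of the 28 were called: 9 rose and 5 fell. Among all genes 54.3% were called (28.9% higher and 25.4% lower), and the members' 50.0% again lies near that. The median log2 change was 0.05 for the members and 0.04 for all genes. RPS28, RPS10, RPS15 and RPS26 rose most, and RPS12, RPS18, RPS7 and RPS27A fell most. The groups did not overlap for 14 members, against 61.1% of all genes. The split of higher and lower moved with the scaling: 8 and 7 with TMM or edgeR's quasi-likelihood test, 8 and 9 with DESeq2, 14 and 4 with equal totals and 13 and 3 with quantile scaling. ZC3H7B replicate 3 differed more from replicates 1 and 2 (chi-square per degree of freedom 6.06 and 5.97 over all genes) than those 2 did from each other (2.49), and without it 11 members were called higher and 4 lower. The ZC3H7A and ZC3H7B comparisons share their 3 control libraries.

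Set directly against each other, ZC3H7A libraries were higher than ZC3H7B libraries for 7 members (RPSA, RPS2, RPS16, RPS18, RPS21, RPS25 and RPS29) and lower for RPS15. That is 28.6% of the members, against 36.6% of all genes (18.4% higher and 18.2% lower). The groups did not overlap for 7 members, against 43.7% of all genes. The median log2 difference was 0.08 for the members and -0.01 for all genes.

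In the libraries labelled ZC3H7A/B-DD, 4 of the 28 were called against Parental: RPS19 rose, and RPS26, RPS15 and RPS15A fell. Of 17092 genes tested, 24.5% were called (11% higher and 13.5% lower), against 14.3% of the members. The median log2 change was 0.07 for the members and 0.02 for all genes, and the groups did not overlap for 10 members, against 40.8% of all genes. Since neither target was lower there, the direction belongs to the labelled libraries and not to a measured loss. Parental replicate 3 stood apart from replicates 1 and 2 (chi-square per degree of freedom 87.9 and 64.6 over all genes, against 8.72 between those 2), and without it 2 members were called higher and 4 lower. In that fit 5560 of all 16806 genes tested were called.

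**Figure D3:**
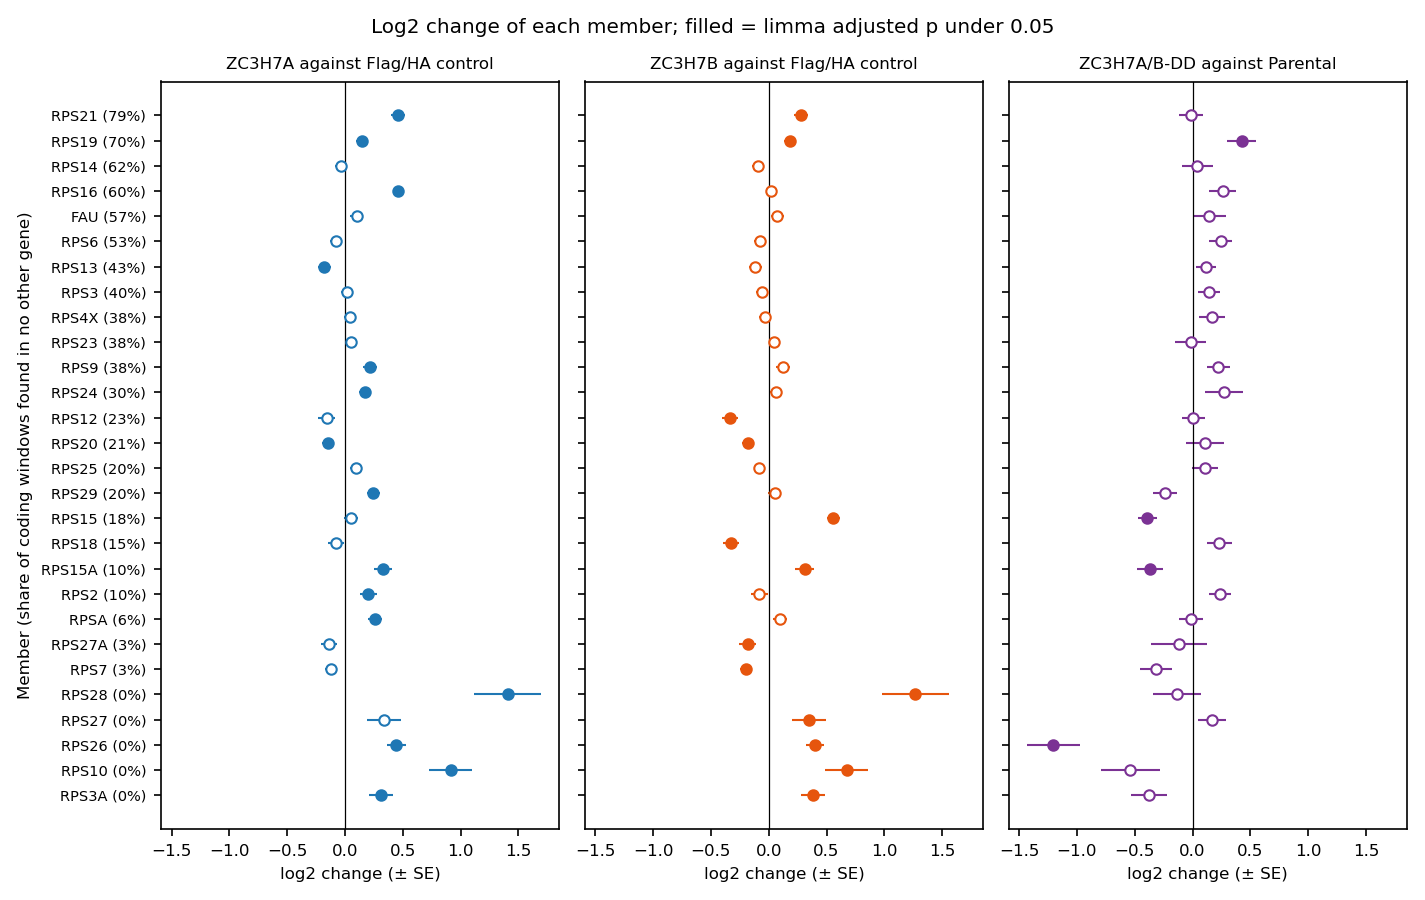
Log2 change (± SE) of each member with ZC3H7A, with ZC3H7B and in the libraries labelled ZC3H7A/B-DD, each against its own control, ordered by the percentage of unique 28-base coding windows; filled points have a limma adjusted p under 0.05. RPS28 and RPS10 lie farthest right in the first 2 panels and RPS26 farthest left in the third, at -1.20.

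Among the head proteins, RPS16, whose C-terminal tail reaches the tRNA in the decoding site, differed between the 2 overexpressed proteins. It lies at chr19:39433207-39435948, minus strand (GENCODE 29, GRCh38). It stood at 14136, 13914 and 12992 normalized counts in the Flag/HA controls, 18911, 19158 and 18316 with ZC3H7A and 14658, 13634 and 13319.5 with ZC3H7B. Every ZC3H7A library lay above every control and every ZC3H7B library, while the latter overlapped. The log2 change was 0.46 ± 0.05 (SE; limma adjusted p = 1.33e-08) with ZC3H7A and 0.02 with ZC3H7B (adjusted p = 0.748), and the difference between them was 0.44 ± 0.05 (SE; limma adjusted p = 5.77e-08). In Parental it stood at 45841, 43068 and 41960.5 and in the libraries labelled ZC3H7A/B-DD at 54246, 52791 and 49628. Those groups did not overlap either, with a log2 change of 0.26 ± 0.11 (SE; limma adjusted p = 0.127), which misses the threshold.

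RPS15, a head protein whose tail also approaches the decoding site, showed the opposite pattern. Its gene lies at chr19:1438358-1440494, plus strand. It stood at 1620.3, 1488 and 1452 in the controls, 1655, 1619 and 1455 with ZC3H7A and 2224, 2251 and 2234 with ZC3H7B. The ZC3H7B libraries lay within a narrow band above all the others, and the ZC3H7A libraries overlapped the controls. The log2 change was 0.56 ± 0.06 (SE; limma adjusted p = 1.68e-08) with ZC3H7B and 0.05 with ZC3H7A (adjusted p = 0.457), and the difference, ZC3H7A minus ZC3H7B, was -0.51 ± 0.06 (SE; limma adjusted p = 1.51e-07). RPS15 fell from 2858, 2570.5 and 2637 in Parental to 2013, 2029 and 2106 in the libraries labelled ZC3H7A/B-DD, a log2 change of -0.39 ± 0.08 (SE; limma adjusted p = 0.00879). Its principal coding sequence has the lowest share of codons ending in A or T of all members, 6.25%. The 5th percentile of 19471 genes, each taken by its longest coding sequence, is 14.8%. RPS15 is also 1 of the 2 members shown above without a pyrimidine run of 5.

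RPS19, a head protein whose gene is mutated in Diamond-Blackfan anaemia, was the most heavily read member in every group but Parental, where RPS16 had 147516 reads against its 138821, and was called higher in all 3 comparisons with a control. It lies at chr19:41859918-41872926, plus strand. Its values were 41178, 39722 and 39399.5 in the controls, 44174, 48353 and 41324 with ZC3H7A and 46184, 45148 and 45526 with ZC3H7B. Both overexpression groups lay above the controls, by 0.15 ± 0.05 (SE; limma adjusted p = 0.0161) and 0.19 ± 0.05 (SE; limma adjusted p = 0.00413) on the log2 scale. In Parental it stood at 44704, 37466 and 41105 and in the libraries labelled ZC3H7A/B-DD at 58069, 50786 and 56426, a log2 change of 0.42 ± 0.12 (SE; limma adjusted p = 0.0368). The call with ZC3H7A was lost without control replicate 2, control replicate 3 or ZC3H7A replicate 2 (0.09 to 0.21 over the 9 left-out fits). The call in the libraries labelled ZC3H7A/B-DD was lost without either of Parental replicates 1 and 2 or of ZC3H7A/B-DD replicates 1 and 3 (0.36 to 0.49), and with quantile scaling.

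RPS18, which joins the head to the large subunit in a bridge, and RPS12, a protein of the beak, fell with ZC3H7B. RPS18 (chr6:33272010-33276510, plus strand) stood at 7505, 7231 and 7130.4 in the controls, 6959, 7985 and 5959 with ZC3H7A and 5947, 5403 and 6077 with ZC3H7B. Every ZC3H7B library was below every control, while the ZC3H7A libraries spread on both sides of them. The log2 change was -0.33 ± 0.07 (SE; limma adjusted p = 0.000294) with ZC3H7B and -0.07 with ZC3H7A, and the difference of 0.25 ± 0.07 (SE; limma adjusted p = 0.00522) was lost without ZC3H7A replicate 2, the highest library, at 0.15. RPS12 (chr6:132814441-132817564, plus strand) stood at 6531, 6472 and 6419 in the controls, 5380.2, 6238 and 5809 with ZC3H7A and 5465, 5710.3 and 4315 with ZC3H7B. Both overexpression groups lay below the controls without overlap, and the change was -0.34 ± 0.07 (SE; limma adjusted p = 0.000313) with ZC3H7B and -0.16 ± 0.07 (SE; limma adjusted p = 0.06) with ZC3H7A, so that only the first was called. The fall with ZC3H7B kept its call but shrank to -0.21 without ZC3H7B replicate 3 and to -0.20 with quantile scaling, which also gave -0.20 for RPS18. The direct difference for RPS12 was not called (0.18, adjusted p = 0.0534). In Parental the 2 genes stood at 4651, 4108 and 3587 (RPS18) and 2508, 2222 and 2167 (RPS12), and in the libraries labelled ZC3H7A/B-DD at 5073, 4488 and 4851 and 2347, 2513 and 2080.4. Neither was called there.

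RPS25, which many viral internal ribosome entry sites need, and RPS29, a small zinc-binding protein near the mRNA path, were higher with ZC3H7A than with ZC3H7B. RPS25 stood at 12304, 11589.9 and 11685 in the controls, 12579, 13603 and 11846 with ZC3H7A and 11603, 10963 and 11028 with ZC3H7B. The controls lay between and overlapped both groups, so that neither comparison with them was called, while the direct difference was 0.18 ± 0.05 (SE; limma adjusted p = 0.00592). RPS29 stood at 2081, 1987 and 1868 in the controls, 2358, 2315 and 2358 with ZC3H7A and 2215, 2051 and 1891 with ZC3H7B. Here the ZC3H7A libraries lay above both other groups, by 0.25 ± 0.06 (SE; limma adjusted p = 0.000741) against the controls and 0.19 ± 0.06 (SE; limma adjusted p = 0.00912) against ZC3H7B. The direct difference was lost for RPS25 without ZC3H7A replicate 2 (0.12) and for RPS29 without ZC3H7B replicate 3 (0.14). In Parental RPS25 stood at 4843, 3986 and 3968 and RPS29 at 5599, 6063 and 6353. In the libraries labelled ZC3H7A/B-DD they stood at 4315, 4286 and 5177 and 5312, 5480.3 and 4518, with neither called.

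RPS10, which the ubiquitin ligase ZNF598 marks on collided ribosomes, and RPS28, which lies where the mRNA leaves the subunit, showed the largest rises and also the fewest reads. RPS10 (chr6:34417454-34426125, minus strand) stood at 51.9, 55.0 and 67.9 in the controls, 116, 95.0 and 120.0 with ZC3H7A and 100.4, 79.1 and 101 with ZC3H7B. Both groups lay above the controls without overlap, with log2 changes of 0.91 ± 0.18 (SE; limma adjusted p = 0.00018) and 0.67 ± 0.18 (SE; limma adjusted p = 0.00349). RPS28 (chr19:8321158-8323340, plus strand) stood at 13.9, 14.4 and 20.1, 32.1, 50.3 and 52.2 and 47.1, 36.2 and 36.7 in the same order, again without overlap. Its log2 changes were 1.41 ± 0.29 (SE; limma adjusted p = 0.00023) and 1.27 ± 0.29 (SE; limma adjusted p = 0.000747), the widest errors of the 28. Neither gene has a unique coding window, and RPS28 was not tested when 100 normalized counts were asked for. RPS10 also shares its sequence with the readthrough gene RPS10-NUDT3, which is listed at 0 in every library. In Parental they stood at 607, 433 and 341 (RPS10) and 63.1, 73.8 and 48.8 (RPS28), and in the libraries labelled ZC3H7A/B-DD at 349, 216 and 389 and 56.8, 53.6 and 56.6, with overlap and no call for either.

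RPS3 and RPS20 are also head proteins. RPS3, at the entry of the mRNA channel, ranged from 23339.8 to 25326 in the controls, 22992 to 25508 with ZC3H7A and 22179 to 23969 with ZC3H7B, and was called in no comparison. RPS20, another target of ZNF598, was called lower with ZC3H7A at -0.15 (adjusted p = 0.0174) and with ZC3H7B at -0.18 (adjusted p = 0.00586). The ZC3H7A libraries overlapped the controls for RPS20. Leaving out control replicate 1, control replicate 3 or ZC3H7A replicate 1 ended the ZC3H7A call (-0.20 to -0.11), as did equal totals or quantile scaling. Quantile scaling also ended the ZC3H7B call (-0.07).

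**Figure D4:**
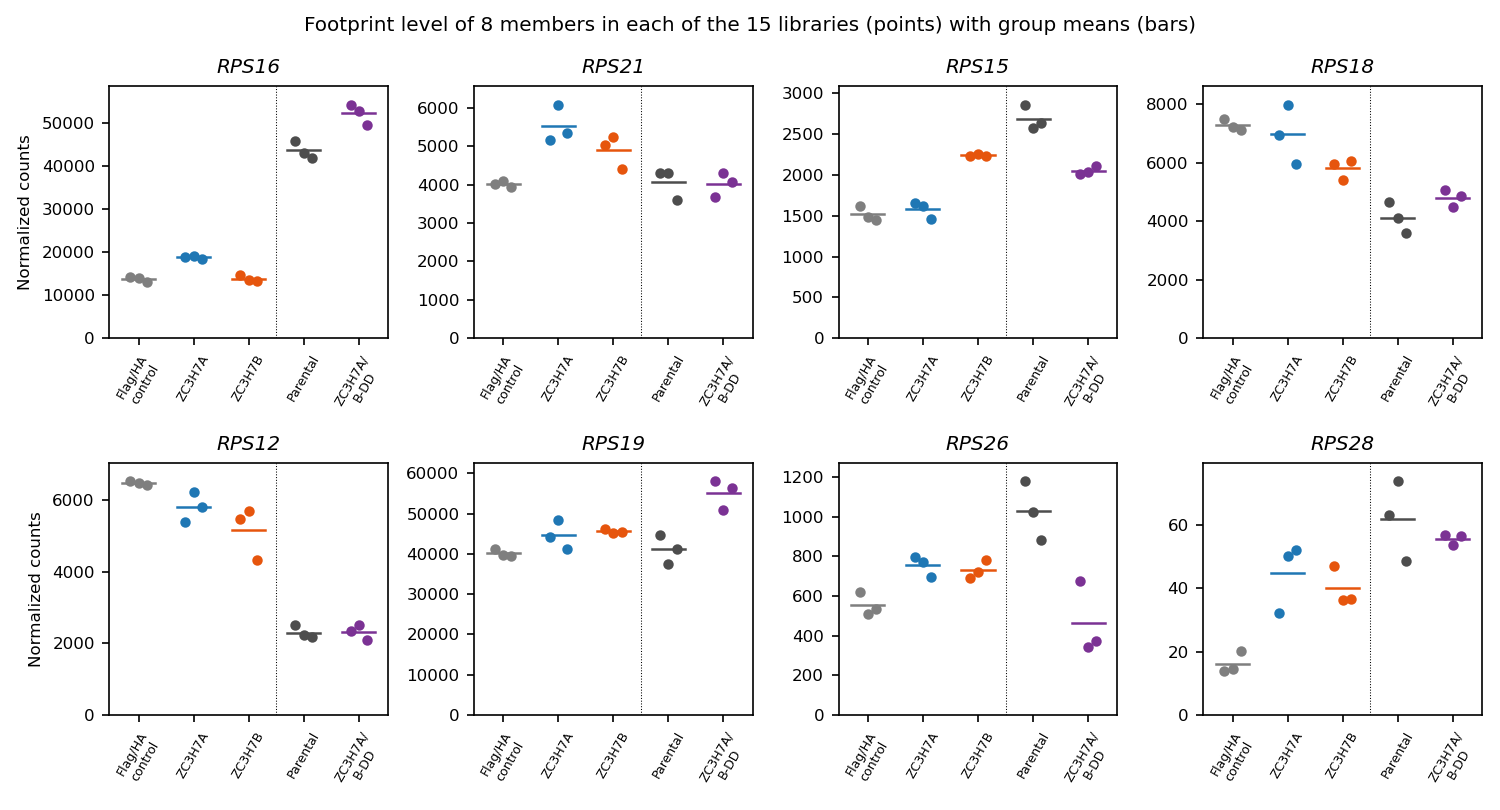
Normalized counts of 8 members in each library (points) with group means (bars), with the Flag/HA libraries left and the Parental and ZC3H7A/B-DD libraries right of the dotted line; each panel has its own axis from 0. RPS16 is high with ZC3H7A and RPS15 with ZC3H7B, and RPS26 is high with both and low in the libraries labelled ZC3H7A/B-DD.

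On the platform, RPS26 touches the mRNA just upstream of the start codon. Its gene lies at chr12:56041351-56044697, plus strand, and it was 1 of 3 members called in all 3 comparisons with a control, against 13.5% of the 14216 genes tested in all of them. It stood at 623, 511 and 534 in the controls, 799, 771 and 698 with ZC3H7A and 690.3, 723 and 783 with ZC3H7B. Both groups lay above the controls without overlap, by 0.45 ± 0.08 (SE; limma adjusted p = 5.82e-05) and 0.40 ± 0.08 (SE; limma adjusted p = 0.000224). In Parental RPS26 stood at 1180.1, 1024 and 882, and in the libraries labelled ZC3H7A/B-DD at 674, 343 and 375, all below Parental. That fall of -1.20 ± 0.23 (SE; limma adjusted p = 0.00658) was the largest of the 28 in that comparison and kept its call without any 1 of the 6 libraries (-1.51 to -1.02). No coding window of RPS26 is unique, and what part of it comes from its 42 pseudogenes with shared windows was not tested.

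RPS21 and RPSA bind each other on the solvent side of the subunit, and RPSA is also known as the laminin receptor. RPS21 (chr20:62387116-62388520, plus strand) stood at 4027, 4087 and 3951 in the controls, 5173, 6082 and 5347 with ZC3H7A and 5037, 5241 and 4406 with ZC3H7B. Both groups lay above the controls, by 0.46 ± 0.06 (SE; limma adjusted p = 6.44e-07) and 0.28 ± 0.06 (SE; limma adjusted p = 0.000368), and it has the highest share of unique windows of all members. RPSA stood at 1259.5, 1239 and 1372, 1595, 1485 and 1564 and 1464, 1400.4 and 1279. Only the ZC3H7A libraries lay clear of the controls for RPSA, at 0.26 ± 0.06 (SE; limma adjusted p = 0.000699), against 0.10 with ZC3H7B (adjusted p = 0.182). The direct difference was 0.17 ± 0.06 (SE; limma adjusted p = 0.035) for RPSA and 0.18 ± 0.06 (SE; limma adjusted p = 0.0225) for RPS21, whose 2 groups overlapped. It was lost for RPSA without any of ZC3H7A replicates 1 and 3 or ZC3H7B replicates 2 and 3 (0.11 to 0.21) and for RPS21 without ZC3H7A replicate 2 or ZC3H7B replicate 3 (0.10 to 0.23). In Parental RPS21 stood at 4300.3, 4303 and 3588 and RPSA at 1090.2, 1101 and 1356. The libraries labelled ZC3H7A/B-DD gave 3685, 4293 and 4058 and 1181, 1170.4 and 1152, overlapping Parental.

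The other platform proteins include RPS14, a gene lost in the 5q- syndrome, which was called in no comparison and ranged from 20226 to 21736 in the controls. RPS3A and RPS27, both without a unique window, rose with ZC3H7B by 0.38 ± 0.10 (SE; limma adjusted p = 0.00349) and 0.35 ± 0.15 (SE; limma adjusted p = 0.048). With ZC3H7A the changes were 0.31 ± 0.10 (SE; limma adjusted p = 0.0147) and 0.34 ± 0.15 (SE; limma adjusted p = 0.0523), so that only RPS3A was called. The RPS3A call with ZC3H7A was lost without control replicate 1, control replicate 2 or ZC3H7A replicate 2 (0.27 to 0.37), and with quantile scaling (0.23). The RPS27 call with ZC3H7B was lost in 6 of the 9 fits that left out a library (0.24 to 0.44; all but those without ZC3H7A replicate 1, ZC3H7A replicate 2 or ZC3H7B replicate 3), and with TMM, quantile scaling, edgeR and DESeq2. Taking the 5 members without a unique window together, all 5 were called higher with ZC3H7B and 4 with ZC3H7A, where 28.9% and 29.2% of all genes were, and in the libraries labelled ZC3H7A/B-DD 1 was called, lower. Of the 5 members under 10%, 1 was called higher and 2 lower with ZC3H7B, and 3 higher with ZC3H7A. Of the 6 at 10% to 30%, 1 was called higher and 3 lower with ZC3H7B, and 1 higher and 1 lower with ZC3H7A. Of the 12 with 30% or more, 2 were called higher with ZC3H7B, and 5 higher and 1 lower with ZC3H7A. The differences between these sets were not tested.

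In the body, RPS15A was called in all 3 comparisons with a control. It stood at 597, 688 and 575 in the controls, 738, 799 and 794 with ZC3H7A and 734, 712 and 865 with ZC3H7B. Both groups lay above the controls, by 0.33 ± 0.08 (SE; limma adjusted p = 0.00146) and 0.31 ± 0.08 (SE; limma adjusted p = 0.00247). It fell from 2289, 3053 and 2648 in Parental to 2024, 2180.2 and 1940.0 in the libraries labelled ZC3H7A/B-DD, by -0.37 ± 0.11 (SE; limma adjusted p = 0.0418). That last call was lost without Parental replicate 2 or any 1 of the 3 ZC3H7A/B-DD libraries (-0.47 to -0.27). Its gene overlaps AC138811.2 on the same strand, which also shares 51.2% of its coding windows.

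RPS2, on the body at the mRNA entry, and RPS3 are the proteins that the ubiquitin ligase RNF10 marks on stalled subunits. RPS2 stood at 1830.5, 1592 and 1576 in the controls, 2129, 1991 and 1651 with ZC3H7A and 1545, 1545 and 1624 with ZC3H7B. Every ZC3H7A library lay above every ZC3H7B library, by 0.28 ± 0.07 (SE; limma adjusted p = 0.00352), while 1 ZC3H7A library overlapped the controls. The rise of 0.20 ± 0.07 (SE; limma adjusted p = 0.0218) over the controls was lost without control replicate 2, control replicate 3, ZC3H7A replicate 1 or ZC3H7A replicate 2 (0.13 to 0.31). In Parental RPS2 stood at 3106, 2571 and 2983 and in the libraries labelled ZC3H7A/B-DD at 3589, 3278 and 3334, all higher but not called (0.24, adjusted p = 0.0975).

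RPS7, which also binds MDM2, and RPS13, at a bridge to the large subunit, were body proteins that fell in 1 of the overexpression comparisons each. RPS7 stood at 1977, 2017 and 2013 in the controls, 1793, 1938 and 1789 with ZC3H7A and 1825, 1789 and 1634 with ZC3H7B. Both groups lay below the controls without overlap, and the change was called with ZC3H7B, -0.20 ± 0.05 (SE; limma adjusted p = 0.00363), and not with ZC3H7A, -0.12 ± 0.05 (SE; limma adjusted p = 0.0563). RPS13 stood at 6639.5, 6327 and 6254, 5858, 6016 and 5148 and 6325, 5835 and 5597 in the same order. It fell with ZC3H7A by -0.18 ± 0.06 (SE; limma adjusted p = 0.00809) and its change with ZC3H7B was -0.12 ± 0.06 (SE; limma adjusted p = 0.0807); the call was lost without ZC3H7A replicate 3 (-0.11) and with quantile scaling (-0.06), and equal totals gave -0.11. In Parental RPS7 stood at 1276, 1002 and 1051 and RPS13 at 9599, 9157 and 9109.8. The libraries labelled ZC3H7A/B-DD gave 832, 784 and 1069 and 10796, 9488 and 9935, and neither was called.

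RPS9 and RPS24, 2 further body proteins, rose with ZC3H7A by 0.22 ± 0.06 (SE; limma adjusted p = 0.00238) and 0.17 ± 0.05 (SE; limma adjusted p = 0.00611). The RPS24 call was lost without ZC3H7A replicate 2 (0.11). RPS4X, RPS6 (the substrate of the S6 kinases) and RPS23 (at the decoding centre) were called in no comparison with a control. Their log2 changes were 0.04, -0.08 and 0.05 with ZC3H7A, -0.03, -0.08 and 0.05 with ZC3H7B, and 0.17, 0.24 and -0.01 in the libraries labelled ZC3H7A/B-DD. Together with RPS3, RPS14, RPS25 and FAU they make up the 7 members called in none of the 3, against 21.6% of the 14216 genes.

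RPS27A and FAU are made as fusions: RPS27A carries ubiquitin and FAU a ubiquitin-like protein at its N-terminus, cut off after synthesis. RPS27A stood at 1576, 1610.2 and 1571 in the controls, 1411, 1596 and 1334 with ZC3H7A and 1441, 1533 and 1234 with ZC3H7B. Only the ZC3H7B libraries lay clear below the controls, and the change was -0.18 ± 0.07 (SE; limma adjusted p = 0.0338), against -0.14 ± 0.07 (SE; limma adjusted p = 0.108) with ZC3H7A. The call was lost without any 1 of the 3 control libraries or without ZC3H7B replicate 3 (-0.25 to -0.09), and with equal totals or quantile scaling. FAU stood at 3949.5, 3785 and 3717, 4103, 4423 and 3774 and 4140.3, 4164 and 3767, with overlap throughout and log2 changes of 0.10 and 0.07 that were not called. In Parental RPS27A stood at 3429, 2676 and 1841 and FAU at 12844, 11928 and 12076. The libraries labelled ZC3H7A/B-DD gave 2242, 3199 and 1833 and 14901, 10783 and 15576, which spread on both sides of Parental.

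The series concerns codon content, so the share of codons ending in A or T was set against the log2 changes. This share, taken from each principal coding sequence, ran from 6.25% for RPS15 to 61.3% for RPS23, with a median of 44.2%. The median over 19471 genes was 39.4%, taken from each gene's longest coding sequence instead. Spearman's rho between the members' share and the log2 change was -0.43 with ZC3H7A, -0.35 with ZC3H7B and -0.09 in the libraries labelled ZC3H7A/B-DD over the 28 members. Over the 23 members with a unique window it was -0.58, -0.50 and -0.08. These values are descriptions: the points share libraries, and the first 2 comparisons share controls. The log2 change against the share of unique windows gave -0.30, -0.29 and 0.56.

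The genes around the small subunit proteins were counted from lists by role. Of all genes tested, 29.2% rose and 28.2% fell with ZC3H7A, and 28.9% and 25.4% with ZC3H7B. In the libraries labelled ZC3H7A/B-DD the shares were 11% and 13.5%. Of 46 large subunit protein genes, 18 rose and 6 fell with ZC3H7A, 19 and 9 with ZC3H7B, and 5 and 6 in the libraries labelled ZC3H7A/B-DD. RPL28 rose by 0.51 and RPL6 changed by -0.60 with ZC3H7A (limma adjusted p = 9.89e-09 and 2.69e-09), and RPL22 rose by 1.02 with ZC3H7B (adjusted p = 1.65e-10). Of 56 small subunit assembly factors tested, 24 rose and 18 fell with ZC3H7A, 22 and 16 with ZC3H7B, and 8 and 4 in the labelled libraries. Among them FBL, the methyltransferase of box C/D snoRNPs, rose by 0.89 with ZC3H7A and 0.42 with ZC3H7B, while UTP20, of the processome, changed by -0.49 with ZC3H7A. Other TOP mRNAs split evenly: of 23 tested, 7 rose and 7 fell with ZC3H7A, 7 and 6 with ZC3H7B, and 6 and 4 in the libraries labelled ZC3H7A/B-DD.

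Of 20 genes that control ribosomal protein synthesis or TOP mRNAs, 12 rose and 4 fell with ZC3H7A, 12 and 2 with ZC3H7B, and 1 and 7 in the libraries labelled ZC3H7A/B-DD. Over all genes tested, 57.5%, 54.3% and 24.5% were called in the same order. MYC, a transcription factor for ribosome genes, changed by 0.96 with ZC3H7A and -1.18 in the labelled libraries (adjusted p = 2.14e-12 and 8.86e-05). MTOR, the kinase that controls TOP mRNAs, changed by -0.78 with ZC3H7A and -0.88 in the labelled libraries (limma adjusted p = 6.17e-13 and 0.000203). With ZC3H7B the 2 genes of this list called lower were RHEB and TSC2, so that MTOR was not called lower there. Of 17 genes of 40S quality control, 4 rose and 7 fell with ZC3H7A, 3 and 4 with ZC3H7B, and 1 and 1 in the labelled libraries. RNF10, the ligase for RPS2 and RPS3, rose by 0.40 with ZC3H7A and 0.30 with ZC3H7B and changed by -0.60 in the libraries labelled ZC3H7A/B-DD. HBS1L, of the same list, changed by -0.51 with ZC3H7A and -0.42 with ZC3H7B. GIGYF2 changed by -0.56 with ZC3H7A and ASCC3 by -0.41 with ZC3H7B. The median log2 change with ZC3H7A was 0.13 for the small subunit proteins, 0.09 for the large subunit proteins and 0.04 for the assembly factors. It was -0.02 for other TOP mRNAs, 0.18 for the control genes above and -0.10 for 40S quality control. With ZC3H7B the medians were 0.05, 0.06, 0.05, -0.03, 0.17 and 0.09 in the same order. In the libraries labelled ZC3H7A/B-DD they were 0.07, 0.03, 0.11, 0.18, -0.18 and 0.18. The differences between lists were not tested.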

How the data were processed

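The member rule is a list of gene names, but it and the other lists were chosen with earlier results of these data known. The deposited table holds normalized counts for 15 libraries, a signal scaled by size factors, and the authors' steps named in the submitters' processing notes are cutadapt, Bowtie, STAR, HTSeq and DESeq2 with hg38 and hg19, without versions or roles. Every value was a whole multiple of 1 read's worth in its library (100% within 0.001 reads), so whole reads were recovered. They give the depths of 20777204 to 42680589 reads assigned to genes, and counts for edgeR and DESeq2 as alternatives. limma 3.58.1 (R 4.3.3) with trend was fitted to log2(value + 1) of genes at 10 or more in at least 3 libraries. There was 1 fit of the 9 Flag/HA libraries with 3 contrasts and 1 fit of the other 6, two-sided, with a Benjamini-Hochberg threshold of 0.05. It was also run on simulated counts for each pair of groups. These had the same spread in every library, so that the run does not cover libraries that stand apart. Coding windows and coordinates come from GENCODE 29 (GRCh38), start windows from RefSeq (GRCh38.p14). A gene is given library by library where it was among the 4 largest called rises or falls without overlap, was called in all 3 comparisons with a control or between ZC3H7A and ZC3H7B without overlap, or encodes a fusion; from other lists up to 2 called genes a direction with the smallest p could be named. The remaining member values are ranges or changes. RPS19P1 and RPS4XP22 were chosen after their values were seen. Alternatives were pseudocounts, filters, scalings, tools, the replicate block and leaving out each library. edgeR was 4.0.16 and DESeq2 1.42.0.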

Additional observations from a re-analysis of the deposited data

Results flagged for a closer look

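The 2 overexpression effects differed by the direct test (limma adjusted p below 0.05) for 8 members, given as ZC3H7A minus ZC3H7B on the log2 scale. The difference was 0.44 for RPS16, 0.28 for RPS2, 0.25 for RPS18, 0.19 for RPS29, 0.18 for RPS21, 0.18 for RPS25 and 0.17 for RPSA. It was -0.51 for RPS15, the member that was higher with ZC3H7B. RPS2, RPS15 and RPS16 kept the call under every alternative run.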

How the results depend on the processing

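No called change of a member reversed under any alternative run. The call was kept under every alternative in which the gene was tested by 8 of 15 members with ZC3H7A (RPSA, RPS9, RPS10, RPS15A, RPS16, RPS21, RPS28 and RPS29), by 8 of 14 with ZC3H7B (RPS3A, RPS10, RPS12, RPS15, RPS15A, RPS18, RPS21 and RPS28), by 3 of 8 between them and by 2 of 4 in the libraries labelled ZC3H7A/B-DD (RPS15 and RPS26). With 1 fit over all 15 samples the number called became 8 with ZC3H7A, 8 with ZC3H7B, 3 between them and 10 in the labelled libraries. Of all 18589 genes tested in that fit, 7347, 6904, 3893 and 6223 were called in the same order. The calls lost there were RPS2, RPS3A, RPS13, RPS19, RPS20, RPS24 and RPS26 with ZC3H7A, RPS7, RPS19, RPS20, RPS26, RPS27 and RPS27A with ZC3H7B and RPSA, RPS18, RPS21, RPS25 and RPS29 between them. Leaving out 1 library gave 12 to 18 member calls with ZC3H7A, 12 to 15 with ZC3H7B and 5 to 9 between them. The 5 came without ZC3H7A replicate 2 or ZC3H7B replicate 3. In the labelled libraries it gave 2 to 6, with 2 when Parental replicate 2, ZC3H7A/B-DD replicate 1 or ZC3H7A/B-DD replicate 3 was out. Over all genes the Flag/HA fits called 8113 to 9224, 7563 to 8584 and 4987 to 5619 of 15426 to 15502 tested. The fits of the labelled libraries called 1895 to 5560 of 16681 to 16806. An arm of 2 remained each time. The replicate numbers did not pair the libraries: same-numbered libraries correlated at -0.14 to 0.19 in the 9 Flag/HA pairs and -0.28 to -0.05 in the other 3. With the replicate block the calls were 19, 16, 9 and 2, and RPS19 and RPS15A were the calls lost in the labelled libraries. Over all genes the block gave 9169, 8714 and 6026 of 15599, and 2992 of 17092 in the labelled libraries. Adding the reads of 283 pseudogene rows raised the members' share to 0.746% in the controls, 0.775% with ZC3H7B and 0.960% in the labelled libraries. The level per codon over the principal coding sequence was an alternative chosen after seeing the data. In the Flag/HA controls it moved 7 of the 9 members whose longest coding sequence is not the principal one by more than their SD. It also changed the median member, so that members with only 1 length shifted too, such as RPS19 from 9.24 to 7.63. Both levels use the same reads, and only the codon lengths and the median member differ. The length of the RefSeq protein was not run. Depth limits RPS28 and RPS10 most, with 39 and 141 reads over the 3 controls.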

Other observations

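Rows named as pseudogenes of the members hold 0.0223% to 0.0402% of reads, and 27 of them passed the filter in the Flag/HA libraries. Of these 27, 3 rose and 3 fell with ZC3H7A, where 57.5% of all genes tested were called. With ZC3H7B 3 rose and 4 fell, where 54.3% of all genes were called. In the libraries labelled ZC3H7A/B-DD 106 rows were tested, of which 5 rose and 1 fell, against 24.5% of all genes called. Many of the 27 rows had low counts, such as FAUP1 with a mean of 7.44 in the controls. The difference from all genes was not tested. RPS19P1, a processed copy that shares 19.1% of the coding windows of RPS19, stood at 306, 337 and 287 normalized counts in the controls, 664, 555 and 546 with ZC3H7A, and 660 (replicate 1), 590.2 and 565 with ZC3H7B. It lay above the controls in all 6 libraries, by 0.92 and 0.96 on the log2 scale (limma adjusted p = 1.19e-08 and 6.46e-09), and in the libraries labelled ZC3H7A/B-DD it stood at 1143, 1282 and 775 against 565, 629.8 and 392 in Parental, a change of 1.01 (adjusted p = 0.0103). RPS19 itself changed by 0.15, 0.19 and 0.42. RPS4XP22 was the other row that stood out, at 12607, 12287 and 12975 in the controls, where RPS4X stood at 37331, 34730.2 and 33991. It was lower with ZC3H7A (-0.19, adjusted p = 0.00463) and with ZC3H7B (-0.22, adjusted p = 0.00148), while RPS4X changed by 0.04 and -0.03 and was not called. In Parental RPS4XP22 stood at 1938, 1813 and 2312, and RPS4X at 30327, 31389 and 34719. Both rows were chosen after their values were seen.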
